A study of Mus musculus with 8 samples.

Results

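Late response genes are the effector genes that neurons switch on after the first wave of activity-induced transcription factors, and 10 of them were examined here for binding of cohesin: Bdnf, Cdkn1a, Rgs2, Rasgrp1, Plk2, Inhba, Pim1, Scg2, Vgf and Sorcs3. They were taken by name from 21887 protein-coding genes of the RefSeq annotation of GRCm38, and every listed SMC1 peak within 50 kb of each gene body was collected. Cultured mouse cortical neurons were assayed by chromatin immunoprecipitation and sequencing (ChIP-seq) with an antibody to SMC1, one of the long coiled-coil subunits that form the cohesin ring. The NMDA group was given 50 µM NMDA in the bath for 10 min and kept for 50 min in medium without drug before collection, and the resting group had no treatment. All cultures were wild type (WT), came from embryonic day 16 (E16) Swiss-Webster cortex and were collected at day 13 in vitro. Each group had 2 ChIP samples, described as biological replicates, and 2 input samples, and each condition is represented by 1 list of peaks that had been found in both replicates. The labels do not say whether the cultures of a group came from separate litters. A list of cohesin sites holds no expression level, so the cell type label could not be checked against marker genes.

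Cohesin extrudes chromatin loops and is often halted where the insulator protein CTCF is bound, and it is also found at active promoters and enhancers. In neurons, calcium entry through NMDA receptors activates CREB and other factors that act first on early response genes, and late response genes follow, in part through the protein products of the early ones. The late genes encode secreted signals, signalling enzymes and receptors that adjust synapses and excitability, and they differ more between cell types than the early genes do.

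The NMDA list held 1684 peaks and the resting list 12359. The strength of a peak is given as the authors' −log10 p of the peak caller, summed over the replicates, and the value in each replicate is given as the first and the second replicate column. The median strength was 23.0 in the NMDA list and 30.2 in the resting list. The depth of the libraries is unknown from these lists, and a −log10 p grows with depth, so a value is placed by its percentile within its own list and no test was made between lists. An exact test of 2 against 2 replicates gives no p smaller than 0.33.

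SMC1 was listed near 1 of the 10 genes after NMDA and near all 10 at rest. The NMDA list held 1 peak within 50 kb of a member, at Pim1 (1 of 10 genes, 10.0%, exact 95% interval 0.253 to 44.5%), and the resting list held 20 peaks (10 of 10 genes, interval 69.2 to 100%). Over all protein-coding genes the NMDA list had a peak within 50 kb of 16.9% and the resting list of 62.4%. Of the protein-coding genes near a resting peak, 24.6% were near an NMDA peak as well. The 10 genes had been put together with their peaks in these lists known, so both counts are descriptions of that choice and nothing is read from the difference to the background.

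Of the 20 resting peaks 12 touched the body of the gene, 3 lay outside it within 10 kb, and 5 lay farther away. The 5 distant peaks were nearer to another protein-coding gene. Bdnf, Rgs2 and Scg2 had 1 resting peak each, Cdkn1a, Plk2, Vgf and Sorcs3 had 2, and Rasgrp1, Inhba and Pim1 had 3. The mean was 2.0 resting peaks per member, against 1.22 over all protein-coding genes. Every member had a resting peak by choice, while the mean over all genes includes those without one. Only 62.4% of protein-coding genes had a resting peak within 50 kb, so the means are not alike and nothing is read from their difference. The members' bodies ran from 4812 bp at Rgs2 to 599481 bp at Sorcs3, with a median of 8.9 kb, and those of all protein-coding genes had a median of 17.2 kb.

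**Figure D1:**
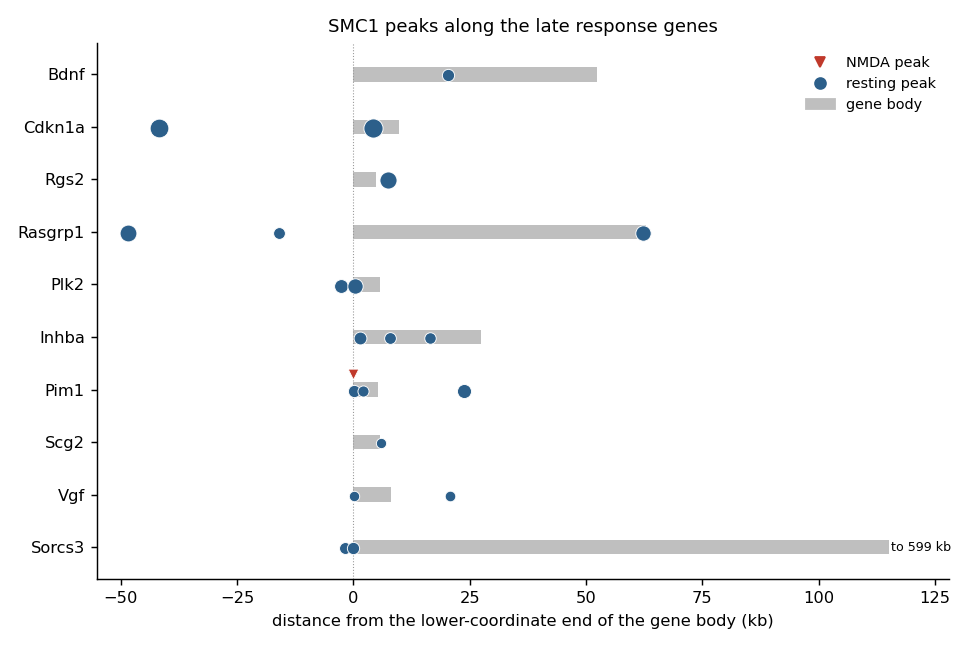
Position of each SMC1 peak midpoint relative to the lower-coordinate end of the gene body (kb), with 1 row per gene, grey bars for gene bodies, red triangles for NMDA peaks, blue circles for resting peaks, and symbol area growing with strength. The 1 NMDA peak sits at the start of Pim1, and 12 of the 20 resting peaks touch a gene body, while Sorcs3 runs on to 599 kb with both of its peaks at one end.

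By percentile, the strength of the resting peaks spread over most of the list, from 4.76 to 97.7. Across the members the 20 peaks ran from 18.6 at Scg2 to 91.5 at Cdkn1a, with a median of 31.1, and 12 of the 20 were above the list median, as 50.0% of all resting peaks are. The 4 strongest, counted for Cdkn1a (2 peaks), Rgs2 and Rasgrp1, lay between percentiles 93.6 and 97.7 of the list. Of these, 1 lay 41.4 kb from Cdkn1a and nearest to Srsf3. The Rasgrp1 one lay 48.1 kb away, with Fam98b as its nearest protein-coding gene. Taking the strongest peak of each gene, the order was Cdkn1a, Rgs2, Rasgrp1, Plk2, Pim1, Inhba, Sorcs3, Bdnf, Vgf and Scg2. Neighbours in this order had overlapping replicate ranges in 8 of 9 pairs, so their order is not separated by the replicates. The exception was Plk2 above Pim1, with 26.0 to 29.0 and 20.6 to 23.3 per replicate. In this order Rasgrp1, Pim1 and Vgf are placed by peaks outside the gene that were nearer to another protein-coding gene. The strongest peak of a member had a median strength of 39.5, and the strongest peak within 50 kb of a protein-coding gene that had one had a median of 35.9.

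**Figure D2:**
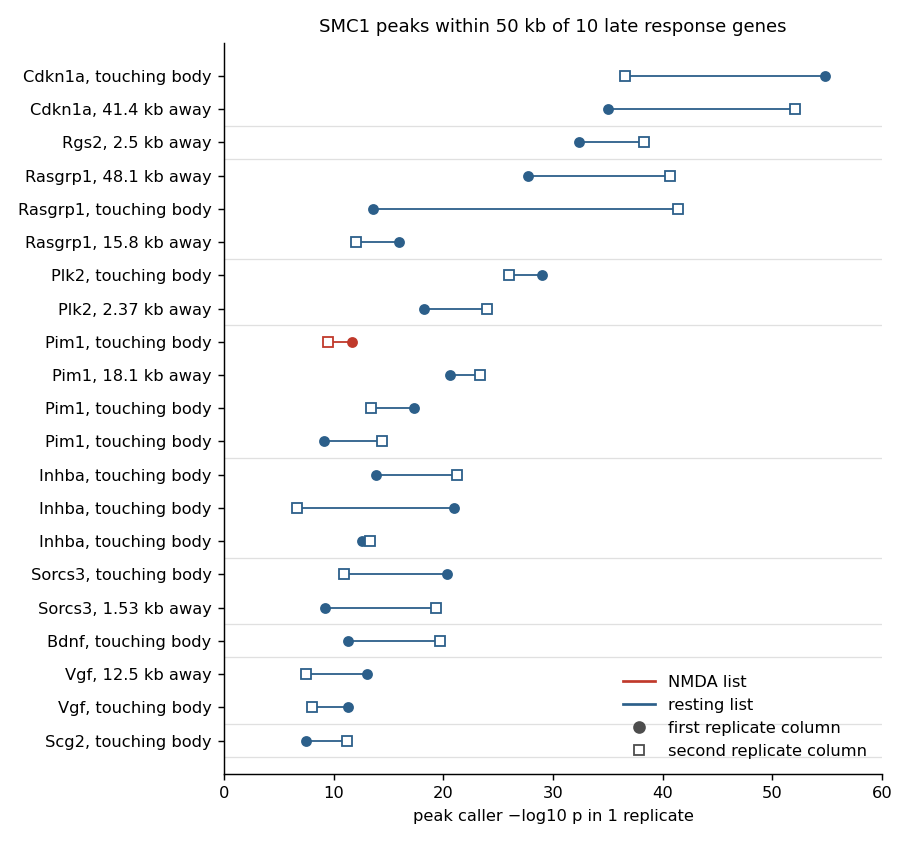
The −log10 p of each replicate (horizontal axis) for every peak within 50 kb of the 10 genes, in red for the NMDA list and blue for the resting list, with the first replicate column as a filled circle and the second as an open square joined by a line. Genes run from the strongest resting peak (Cdkn1a, 91.5 summed) to the weakest (Scg2, 18.6), and long lines mark peaks whose replicate values are far apart, as at Rasgrp1 and Inhba.

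Bdnf encodes brain-derived neurotrophic factor, the secreted ligand of the receptor TrkB, and is transcribed from several alternative promoters. The gene lies on chromosome 2 at 109674700 to 109727043, and the RefSeq promoter table lists 7 starts for it. No NMDA peak lay within 50 kb, and the nearest one was 2650 kb away near Emc4 (strength 41.4). The single resting peak, at 109694812 to 109695352, lay inside the gene and had 11.3 in the first replicate column and 19.7 in the second. Its summed strength of 31.0 was at percentile 52.1 of the resting list. The replicates placed it apart, at percentile 25.3 by the first column and 70.2 by the second. It covered none of the 7 starts. The closest, at 109694409, was 403 bp from the edge of the peak.

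Scg2, Vgf and Inhba encode further secreted products. Scg2 (secretogranin II, a granin of dense-core vesicles and the precursor of secretoneurin) lies on chromosome 1 at 79434366 to 79440026. Its nearest NMDA peak was 1920 kb away near Epha4 (26.2). The resting peak at 79439880 to 79440490 covered the start of the gene, with replicate values of 7.43 and 11.2 and a strength of 18.6. By the sum this was the weakest peak of the 10 genes, at percentile 4.76, close to the lowest strength in the list (16.7). It was at percentile 2.44 by the first column and 30.5 by the second, and by the second column both Vgf peaks and the start peaks of Inhba and Sorcs3 were weaker.

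Vgf, a granin-like precursor of neuropeptides, lies on chromosome 5 at 137025301 to 137033351. No NMDA peak was closer than 457 kb, where one lay at Cux1 (47.8). A resting peak at 137025191 to 137025521 covered one end of the gene, with 11.3 and 8.02 in the replicates (strength 19.4). A second, at 137045821 to 137046391, had 13 and 7.47 (20.5) and lay inside Ap1s1, a subunit gene of a clathrin adaptor, 12.5 kb from Vgf. By the sum they were at percentiles 8.24 and 13.1 of the list. By the first replicate column they were at 25.8 and 38.2, and by the second at 6.91 and 4.96. Scg2 and Vgf were the members with no peak at an irreproducible discovery rate (IDR) up to 0.01, a limit that 14 of the 20 resting peaks of the 10 genes and 56.9% of the resting list met.

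Inhba encodes the subunit that pairs with itself to form activin A, a ligand of the TGF-beta family. It lies on chromosome 13 at 16004256 to 16031609, and its nearest NMDA peak was 244 kb away near Gli3 (31.2). All 3 resting peaks lay inside the gene body. The first, at 16005542 to 16006010, had 13.8 and 21.2 (35.0). The second, at 16011519 to 16012586, covered the start that RefSeq lists at 16011851. It had 21.0 and 6.6 (27.6), the replicate values that differed by the largest ratio among the 20 peaks, with a log2 ratio of the first to the second column of 1.67. Its value in the second column was at percentile 0.437 and that in the first at percentile 71.7, so the evidence at the Inhba start came mostly from 1 replicate. The third, at 16020517 to 16020995, had 12.6 and 13.3 (25.9). The midpoints of these peaks also lay inside B230303A05Rik, an annotated transcribed pseudogene that overlaps Inhba, and peaks cannot be assigned to one or the other.

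Rgs2, Rasgrp1, Plk2 and Pim1 encode enzymes and regulators of intracellular signalling. Rgs2 (a GTPase-activating protein that curbs G protein signalling) lies on chromosome 1 at 143999338 to 144004149. It was farthest from an NMDA peak, at 7650 kb from one near Camsap2 (18.5). Its resting peak at 144006644 to 144006959 had 32.4 and 38.3 in the replicates and a strength of 70.7, at percentile 94.3. It was also the narrowest peak of the 10 genes, 316 bp wide, and lay 2495 bp before the start.

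Rasgrp1, an exchange factor that activates Ras in response to diacylglycerol and calcium, lies on chromosome 2 at 117279983 to 117342877. An NMDA peak lay no closer than 379 kb, near Tmco5 (20.9). The resting peak within the gene, at 117342035 to 117342520, was 357 bp from the start and had 13.6 and 41.4 in the replicates (55.0). The replicates placed it differently, at percentiles 39.6 and 96.5 of their columns. The others lay beyond the far end of the gene. One at 117231150 to 117231871 had 27.7 and 40.7 (68.3) and was 48.1 kb away. One at 117263749 to 117264186, inside Fam98b, had 15.9 and 12 (27.9). The strongest peak counted for Rasgrp1 thus lay almost at the limit of the window. Its nearest annotated gene was the pseudogene Gm18612, and its nearest protein-coding gene Fam98b.

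Plk2, a kinase that weakens synapses on overactive neurons, lies on chromosome 13 at 110395044 to 110400844, with the nearest NMDA peak 1090 kb away at Gpbp1 (25.7). The resting peak at 110394102 to 110396465 covered the start. It was the widest peak of the 10 genes, at 2364 bp, and its replicate values were close together at 29.0 and 26.0 (54.9, percentile 87.5). A second peak at 110392194 to 110392673, 2371 bp before the gene, had 18.2 and 24.0 (42.3).

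Pim1, a serine/threonine kinase that promotes survival, was the member with a peak in both lists. It lies on chromosome 17 at 29490785 to 29496111. The NMDA peak at 29489949 to 29491465 had replicate values of 11.7 and 9.5 (21.2, percentile 32.4 of the NMDA list, IDR 0.0257). The resting peak at 29489955 to 29491707 had 17.3 and 13.4 (30.8, percentile 51.4 of the resting list, IDR 0.00417). Both covered the first RefSeq start and shared 1511 bp. The replicate values of the lists did not overlap, but the depths of the libraries may differ and no change in binding can be read from them. The other resting peaks of Pim1 had no NMDA peak. The one at 29492398 to 29493338 covered the second RefSeq start, with 9.14 and 14.4 (23.5). The one at 29514234 to 29514907, 18.1 kb beyond the gene and nearest to Tmem217, was the strongest of the 3, with 20.6 and 23.3 (43.9). The lncRNA gene Gm26885 was annotated at the midpoint of both overlapping peaks, so they cannot be assigned to Pim1 alone.

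Cdkn1a encodes p21, an inhibitor of cyclin-dependent kinases, and lies 390.0 kb from Pim1 on chromosome 17, at 29090979 to 29100722. The nearest NMDA peak was 270.0 kb away near Fgd2 (26.6). The resting peak inside the gene, at 29094393 to 29096093, had 54.8 and 36.6 in the replicates and was the strongest of the 10 genes (91.5, percentile 97.7). It was 1701 bp wide, and its edge was 624 bp from the closest of the 2 RefSeq starts. A peak of nearly equal strength, with 35.0 and 52.1 (87.1), lay at 29049005 to 29049600, 41.4 kb away and nearest to Srsf3, a gene for a splicing factor.

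Sorcs3, a VPS10-domain sorting receptor of the postsynaptic side, is the longest of the genes, at 599481 bp on chromosome 19 from 48206025 to 48805505. Its nearest NMDA peak was 1440 kb away at Cnnm2 (40.1). Despite this length, both of its resting peaks lay at the start. The peak at 48205026 to 48207022 covered the start with 20.3 and 10.9 (31.2), and a peak at 48203929 to 48204492, 1533 bp before the gene, had 9.15 and 19.3 (28.5). The replicate columns thus ranked these neighbours in opposite order.

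**Figure D3:**
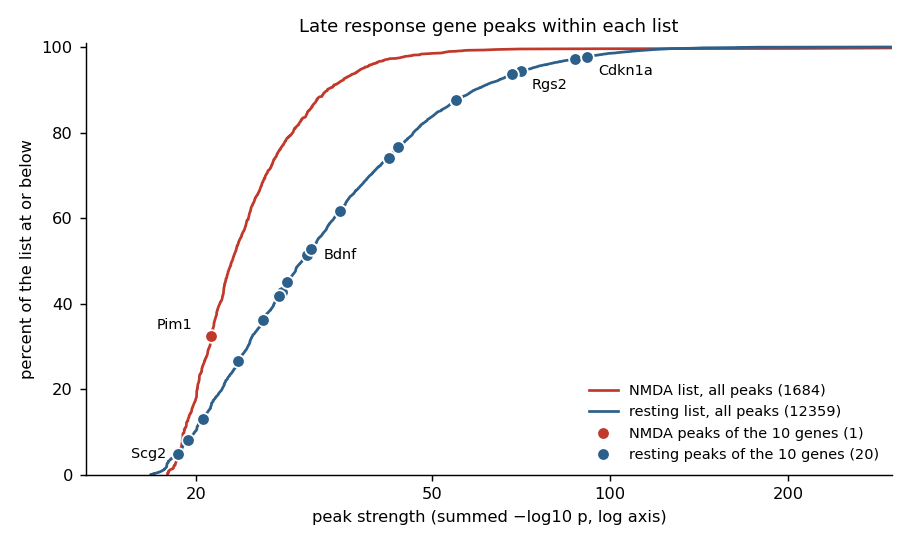
Cumulative percent of each list (vertical axis) against peak strength (summed −log10 p, log axis), as a red line for the 1684 NMDA peaks and a blue line for the 12359 resting peaks, with circles for the peaks of the 10 genes. The resting circles run from percentile 4.76 (Scg2) to percentile 97.7 (Cdkn1a), with Bdnf at 52.1, and the NMDA circle of Pim1 is at 32.4; the strongest peaks of the lists lie beyond the axis.

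The resting peaks over a start were set beside the others. RefSeq promoter entries were found for 9 of the 10 genes, 17 starts in all, and none for Vgf. A start lay inside an NMDA peak in 1 of the 9 genes, Pim1, against 4.84% of protein-coding genes with an entry. It lay inside a resting peak in 5 of the 9, namely Plk2, Inhba, Pim1, Scg2 and Sorcs3, against 11.8%. These counts again follow from genes picked with their peaks known. Of the 20 resting peaks 6 covered a listed start of the member itself, and starts of other genes were not counted. In the resting list 17.7% covered a RefSeq start of any gene, so these shares are not alike.

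The 6 peaks over a start differed among themselves, from the narrow and weak one at Scg2 (611 bp, strength 18.6) to the wide and strong one at Plk2 (2364 bp, 54.9). Their widths ran from 611 to 2364 bp with a median of 1410.5 bp, and those of the other 14 peaks from 316 to 1701 bp with a median of 513.5 bp. Their median strength was 29.2, against 38.6 for the other 14. Those 14 include both Vgf peaks, which could not be classed because Vgf has no listed start. The resting list as a whole had the same order, counting starts of any gene. Its median widths were 1002 and 596 bp and its median strengths 27.2 and 31.1, for peaks over a start and for other peaks. An NMDA peak overlapped 1 of the 6 start peaks, against 25.3% of the resting peaks over any RefSeq start, and none of the other 14. Over all 20 this was 5.0% (exact 95% interval 0.127 to 24.9%), against 10.7% of the resting list.

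**Figure D4:**
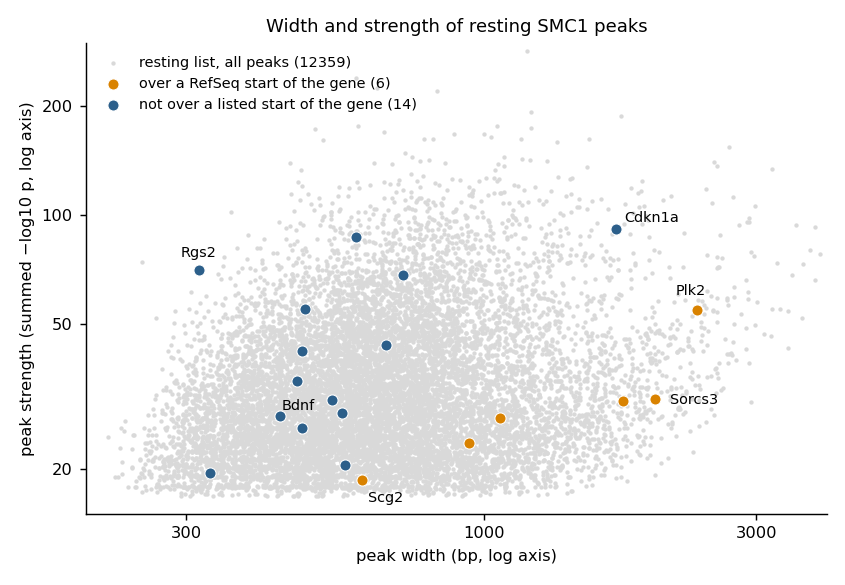
Peak strength (summed −log10 p, log axis) against peak width (bp, log axis) for the resting list in grey, with the 20 peaks of the late response genes in orange or blue. Orange peaks cover a listed RefSeq start of the gene (6), and blue peaks do not (14). Both Vgf peaks are blue because no start is listed for Vgf. The orange points reach from 611 to 2364 bp at strengths up to 54.9, and the strongest points, counted for Cdkn1a, are blue. A few peaks of the list lie beyond the axes.

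The 250 bases before the outermost start are shown for 4 genes, as a part of the DNA that their start peaks cover. In these genes that start is at the end of the gene body and lies inside a resting peak. The only listed start of Inhba also lies in a resting peak, but inside the gene body, and its window is not shown. Each window shown lies wholly inside its resting peak, and that of Pim1 also inside the NMDA peak. They are RefSeq sequences of GRCm38.p6, printed 5′ to 3′ on the strand of the gene, and end at the base before the start. Capitals mark the cyclic AMP response element (CRE) TGACGTCA, the site of CREB. The windows are Plk2 at chr13:110394794-110395043 (plus strand), Pim1 at chr17:29490535-29490784 (plus strand), Scg2 at chr1:79440027-79440276 (minus strand) and Sorcs3 at chr19:48205775-48206024 (plus strand).
Plk2: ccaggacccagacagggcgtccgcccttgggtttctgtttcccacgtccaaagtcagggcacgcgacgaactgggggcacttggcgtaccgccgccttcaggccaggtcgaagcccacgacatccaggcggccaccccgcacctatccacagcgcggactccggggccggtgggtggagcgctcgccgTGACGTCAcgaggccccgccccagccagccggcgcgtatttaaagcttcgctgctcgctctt
Pim1: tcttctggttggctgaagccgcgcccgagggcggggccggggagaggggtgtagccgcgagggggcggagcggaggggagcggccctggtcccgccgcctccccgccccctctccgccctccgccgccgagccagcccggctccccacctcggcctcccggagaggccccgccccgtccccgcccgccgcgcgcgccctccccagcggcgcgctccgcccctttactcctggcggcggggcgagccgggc
Scg2: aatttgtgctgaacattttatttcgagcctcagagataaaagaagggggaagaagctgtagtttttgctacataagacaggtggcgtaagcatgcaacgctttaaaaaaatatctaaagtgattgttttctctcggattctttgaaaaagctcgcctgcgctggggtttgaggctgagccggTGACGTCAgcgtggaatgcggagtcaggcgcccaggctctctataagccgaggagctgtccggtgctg
Sorcs3: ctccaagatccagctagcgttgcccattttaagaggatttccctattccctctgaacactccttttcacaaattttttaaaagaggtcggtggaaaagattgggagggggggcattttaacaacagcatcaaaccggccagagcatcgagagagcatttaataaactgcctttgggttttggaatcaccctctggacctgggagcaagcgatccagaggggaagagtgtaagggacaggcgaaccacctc

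The whole CRE was present in 2 of the 4 windows shown, beginning 62 bases before the start of Plk2 and 68 bases before that of Scg2. Among the 17 starts of the members it was found before these 2 only. The window before the Inhba start held neither the CRE nor any other motif searched. Among all 32851 promoter windows of the same length 1.55% held the CRE on either strand. The 4 windows were picked because their starts lie in a resting peak, so nothing is read from the difference. The CRE contains its core TGACG on each strand, so each CRE also counts as TGACG, and TGACG occurred in 17.8% of all windows. It was found without the whole element before the start of Rgs2, at 185 and 67 bases, and before the Bdnf start at 109692436, at 35 bases, and neither start lay in a listed peak. Apart from these and the starts of Plk2 and Scg2, no start of a member had TGACG. The AP-1 site TGANTCA (6.75% of windows) was found in none of the 4 windows, and among the 17 starts of the members it was found once, 152 bases before the Bdnf start at 109677032. The CTCF motif, searched on both strands as CCA, AG and GGCA in this order with 2 free bases between them, was in no window of a member and in 0.679% of all windows. The Pim1 window was rich in G and C (82.4%), as was that of Plk2 (68.4%), while those of Scg2 and Sorcs3 had 48.0% and 48.4%, against a median of 52.4% over all windows. The Plk2 and Scg2 promoters thus share a CRE and a resting peak, at strengths of 54.9 and 18.6.

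For the 9 genes other than Pim1 the distance to the nearest NMDA peak ran from 244 kb at Inhba to 7650 kb at Rgs2. Over the 10 genes its median was 774 kb, and over all protein-coding genes 343 kb. Inhba and Cdkn1a (270 kb), as well as Pim1, lay below the median of all protein-coding genes. The 10 genes were picked with their peaks known, so nothing is read from the difference between the medians. The nearest NMDA peak overlapped a resting peak for all 10 genes, as did 75.8% of the whole NMDA list. No peak found after NMDA alone was therefore the closest one to any of these genes.

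Other late response genes were counted for comparison, from a list of 12 written with some of their peaks known. Within 50 kb the NMDA list had a peak near 3 of 12 (25.0%) and the resting list near 7 of 12 (58.3%). The stress peptide gene Crh had 13.1 and 15.3 in the NMDA replicates (28.4) and 48.7 and 42.0 in the resting replicates (90.7), at peaks inside the gene. Homer1, a synaptic scaffold gene, had 14.7 and 9.49 after NMDA (24.2) and 24.4 and 30.8 at rest (55.3), with both peaks over its start. Cort, the gene of the neuropeptide cortistatin, had an NMDA peak of 19.3 at 10.3 kb and a resting peak of 35.3 at 48.6 kb, at different places. The other genes with a resting peak were Syt4 (53.9), a synaptotagmin gene, Mylip (34.2), which encodes a ubiquitin ligase, the growth factor gene Igf1 (24.1) and the receptor gene Gpr3 (20.9). No peak of either list lay within 50 kb of Ptgs2, Nptx2, Tac1, Nrn1 or Pcsk1, so a late response gene need not have a listed SMC1 site within that distance. Within 100 kb the resting list had a peak near 9 of 12 (75.0%).

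Early response genes, 22 in a list likewise written with earlier counts known, had an NMDA peak within 50 kb in 12 cases (54.5%, exact 95% interval 32.2 to 75.6%) and a resting peak in 19 (86.4%, 65.1 to 97.1%). The 10 late response genes had 10.0% and 100%. Of the 57 resting peaks of the early genes 13 overlapped an NMDA peak (22.8%, 12.7 to 35.8%), and of the 20 of the 10 late genes 1 did (5.0%, 0.127 to 24.9%). Of the 7 resting peaks of the 12 other late response genes 2 overlapped an NMDA peak (28.6%, 3.67 to 71.0%). The genes were not drawn at random, so these intervals only show how small the counts are. Those over peaks also treat the peaks of the same gene as separate. The differences between the lists of genes were not tested.

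**Figure D5:**
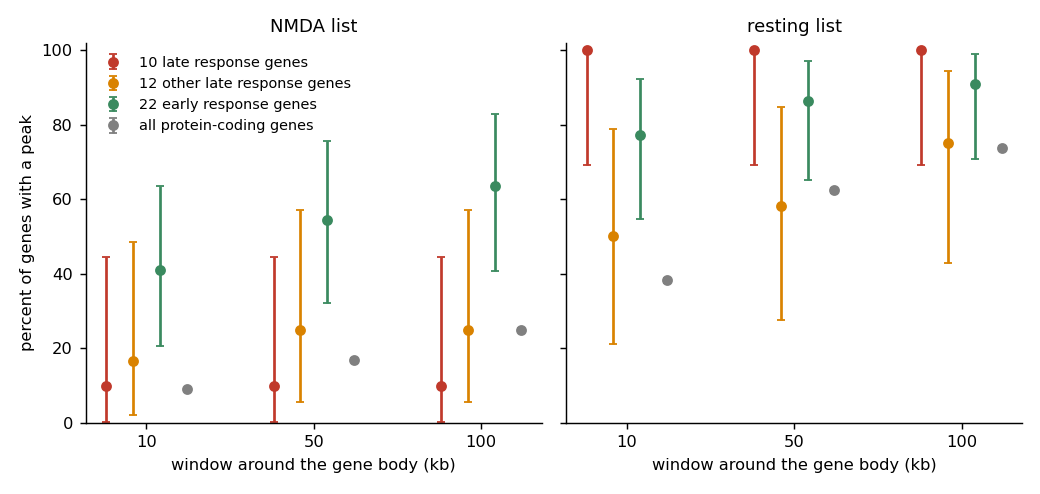
Percent of genes with at least 1 SMC1 peak (vertical axis) within 10, 50 and 100 kb of the body, in the NMDA list (left) and the resting list (right), for the 10 late response genes, the 12 other late response genes, the 22 early response genes and all protein-coding genes, with exact 95% intervals as bars. The 10 late response genes stay at 10.0% in the NMDA list and 100% in the resting list at every window, as they were chosen, while the early response genes go up to 63.6% in the NMDA list at 100 kb.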

How the data were processed

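SMC1 ChIP was made in 2 replicates each of NMDA-treated and resting neurons, with inputs, and groups came from the sample titles. The builds mm10 and GRCm38.p6 and the tools BWA, SAMtools, MACS2, Trimmomatic and FastQC are named per the submitters' processing notes, and no version or setting is given in the sources used here. The growth protocol also describes etoposide, which no sample's treatment label names. The authors deposited 1 peak list per condition, each line holding a −log10 p per replicate from the peak caller and the sum of both. The deposited lists also hold a score for the global IDR (its −log10), and listed peaks reach an IDR of 0.05. The replicate columns carry no numbers. Peaks that failed this limit, and the input values, were not analysed here.

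The members and all gene lists were chosen with earlier results of these data known. All 10 members and all their peaks within 50 kb are named, other late genes where a peak lay within 50 kb, and early genes are counted. Gene bodies came from RefSeq GRCm38.p6 and starts from its promoter table, with 21887 protein-coding genes on the chromosomes. Overlap means at least 1 bp. Intervals are exact Clopper-Pearson. No test was run, since each condition has 1 list. Windows of 10 and 100 kb, an IDR up to 0.01, assignment to the nearest gene, a reciprocal overlap of 50% and single replicate columns were tried. Interval functions were tested on simulated data. Python 3.11.15, pandas 2.3.3, NumPy 2.4.6 and SciPy 1.17.1 were used.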

Additional observations from a re-analysis of the deposited data

How the results depend on the processing

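All 10 genes kept a resting peak with windows of 10 and 100 kb and when a peak counted only for its nearest protein-coding gene, and 8 did at an IDR up to 0.01. Their resting peaks numbered 15, 30, 15 and 14 under these settings, against 20. The NMDA peak at Pim1 stayed under both windows and the nearest-gene rule. At an IDR up to 0.01 no member had an NMDA peak, so NMDA peaks, and resting peaks overlapping one, were both 0. Within 100 kb these were 2 each, with a further NMDA peak 93.4 kb from Pim1 (32.0). A reciprocal overlap of 50% left the count at 1. The share of protein-coding genes with a resting peak was 38.2% within 10 kb, 73.8% within 100 kb, 43.6% at the stricter IDR and 33.8% by nearest gene, against 62.4%. For NMDA peaks these were 8.94%, 24.9%, 3.88% and 7.05%, against 16.9%. The strongest resting peak lay above the list median in 8 members by the sum and in 6 to 7 by a single replicate column. Bdnf was at percentile 25.3 by the first column and 70.2 by the second, Scg2 at 2.44 and 30.5, and the stronger Vgf peak at 38.2 and 4.96. For these genes the cause was not tested. No paired analysis was possible because the lists combine the replicates and their columns carry no replicate numbers. Library depth is unknown, so a peak missing from the NMDA list does not show that SMC1 was absent.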

Other observations

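The replicate columns differed by a log2 ratio of 1 or more, in either direction, at 3 of the 20 resting peaks of the late response genes: the Rasgrp1 peak near the start (−1.61), the Inhba peak over the start (1.67) and the Sorcs3 peak before the gene (−1.08). In the whole resting list 16.5% of peaks differed that much. The second column was the higher one at 12 of the 20 peaks and at 45.9% of the list. These peaks were picked out after their values were seen.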
